A study of Mus musculus and Homo sapiens with 40 samples.

Results

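The 12225 chromatin regions described here carried H3K27ac in cells of the CEBPA isoform p30 in both the untreated and the LPS-treated state, and in neither state in cells of the full-length isoform p42. They were found by merging the 4 H3K27ac peak lists wherever peaks overlapped by at least 1 bp, which gave 183190 regions, and by keeping each region with a peak in both p30 lists and in no p42 list (6.67% of all regions). The opposite pattern, with peaks in both p42 lists and in no p30 list, was met by 4185 regions. The p42 lists were the shorter, and with the best 107141 peaks of each of the 4 lists the counts were 7013 and 5615. A further 56651 regions had a peak in all 4 lists. These groups are called p30-only, p42-only and shared regions. The regions were thus chosen by H3K27ac peaks, and their H3K27ac values are given as a description, without a test. Replicates were pooled or single in every list used, so no result below has a replicate check.

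All samples behind the lists used here were HPC-7, a mouse hematopoietic progenitor cell line that grows in culture. One line carried p42-ERT2 and the other p30-ERT2, that is, the isoform fused to the ligand-binding part of an estrogen receptor, and LPS samples received 100 ng/mL for 2 h. Per the study's methods, the fusions were introduced with retroviruses and the cells were later sorted for GFP, so the cell line and the isoform are the same variable here and cannot be told apart. The methods describe 4-hydroxytamoxifen, given to bring the fusions into the nucleus, for the cultures in general, and the labels do not state it for these samples, so "untreated" here means without LPS. Each H3K27ac list pooled 3 samples, each list of untreated H3K4me1 pooled 2 samples, and each list of sites bound in untreated cells, from an antibody to CEBPA or one to the estrogen receptor (anti-ER, which reads the fusion protein), came from 1 sample. The H3K27ac lists held 129369 peaks for untreated p42, 107141 for p42 with LPS, 139210 for untreated p30 and 142419 for p30 with LPS. At the promoters of 10 progenitor markers, such as Kit, Gata2 and Runx1, all 4 lists had a peak within 1000 bp of a start for 10 of 10 genes, against 0 of 4 lymphoid markers, 1 of 4 macrophage markers and 1 of 3 erythroid markers.

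CEBPA is a transcription factor that starts the myeloid program in progenitors. Its shorter isoform p30 lacks N-terminal activation domains, keeps the DNA-binding domain, and is the product of a class of mutations found in acute myeloid leukemia. H3K27ac marks active enhancers and promoters, and H3K4me1 marks enhancers whether active or not.

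The sequences below show 8 of the p30-only regions, 300 bp each around the strongest p30 summit, on the plus strand of GRCm39. Sel1l, Sema3d and Bmp2 name the genes nearest to 3 of the regions outside promoters that ranked best in both p30 lists. Pdcl3 and Fam3b name 2 of the rare regions where both antibodies found a site, and H3K4me1 was present, in p30 and not in p42. Bcl11a, Meis1 and Kit name the best-ranked region of 3 progenitor genes, which were chosen after their values were seen. Capitals mark matches, on either strand, to short sequences bound by factor families: CEBP (spelled TTGCNNAA), the composite CEBP:AP1 (TGANGCAA), PU.1 (GAGGAAGT), AP-1, RUNX, GATA and the E-box bound by basic helix-loop-helix factors. The AP-1 sequence is TGANTCA. The RUNX sequence is TGTGGTT. The GATA sequence is AGATAAG. The E-box is CAGCTG. The windows are chr12:92857559-92857858 (Sel1l), chr5:12381019-12381318 (Sema3d), chr2:133337774-133338073 (Bmp2), chr1:39064424-39064723 (Pdcl3), chr16:97295760-97296059 (Fam3b), chr11:24245182-24245481 (Bcl11a), chr11:18839229-18839528 (Meis1) and chr5:75919690-75919989 (Kit).
Sel1l: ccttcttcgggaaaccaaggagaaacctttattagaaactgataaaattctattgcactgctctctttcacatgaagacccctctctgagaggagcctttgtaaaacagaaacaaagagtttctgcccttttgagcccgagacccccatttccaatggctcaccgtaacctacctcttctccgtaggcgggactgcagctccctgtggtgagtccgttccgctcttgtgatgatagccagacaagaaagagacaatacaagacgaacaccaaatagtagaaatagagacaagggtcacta
Sema3d: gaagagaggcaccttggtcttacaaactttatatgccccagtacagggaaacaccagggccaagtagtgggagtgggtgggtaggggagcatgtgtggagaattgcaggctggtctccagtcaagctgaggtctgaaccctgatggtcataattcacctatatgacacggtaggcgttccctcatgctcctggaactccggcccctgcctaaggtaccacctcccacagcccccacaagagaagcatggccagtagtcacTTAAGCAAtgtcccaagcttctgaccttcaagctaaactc
Bmp2: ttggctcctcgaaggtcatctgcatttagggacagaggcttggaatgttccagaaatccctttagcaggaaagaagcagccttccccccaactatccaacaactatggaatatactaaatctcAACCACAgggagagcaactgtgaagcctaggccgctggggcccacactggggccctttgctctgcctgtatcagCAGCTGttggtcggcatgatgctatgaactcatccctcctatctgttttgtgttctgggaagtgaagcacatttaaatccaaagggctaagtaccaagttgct
Pdcl3: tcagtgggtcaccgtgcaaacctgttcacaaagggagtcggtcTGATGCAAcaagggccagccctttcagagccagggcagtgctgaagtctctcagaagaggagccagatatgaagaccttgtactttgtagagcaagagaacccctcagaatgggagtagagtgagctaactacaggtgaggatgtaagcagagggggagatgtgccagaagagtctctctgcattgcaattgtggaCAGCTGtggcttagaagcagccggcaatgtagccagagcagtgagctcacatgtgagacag
Fam3b: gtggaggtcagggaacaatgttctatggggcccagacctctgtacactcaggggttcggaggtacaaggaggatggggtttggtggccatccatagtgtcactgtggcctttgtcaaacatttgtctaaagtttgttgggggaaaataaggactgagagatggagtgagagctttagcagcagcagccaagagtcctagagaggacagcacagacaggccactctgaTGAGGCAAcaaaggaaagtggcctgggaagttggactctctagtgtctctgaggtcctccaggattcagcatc
Bcl11a: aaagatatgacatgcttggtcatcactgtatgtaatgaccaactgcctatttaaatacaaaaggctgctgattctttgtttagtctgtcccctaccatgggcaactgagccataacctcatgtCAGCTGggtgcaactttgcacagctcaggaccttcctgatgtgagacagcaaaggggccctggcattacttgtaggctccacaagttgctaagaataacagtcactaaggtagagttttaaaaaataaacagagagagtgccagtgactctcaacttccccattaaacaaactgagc
Meis1: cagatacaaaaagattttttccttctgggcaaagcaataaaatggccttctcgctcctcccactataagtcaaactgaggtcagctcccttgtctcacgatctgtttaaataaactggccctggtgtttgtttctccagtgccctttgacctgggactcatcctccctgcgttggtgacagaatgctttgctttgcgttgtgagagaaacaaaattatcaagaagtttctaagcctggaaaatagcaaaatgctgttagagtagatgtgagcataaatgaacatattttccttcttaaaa
Kit: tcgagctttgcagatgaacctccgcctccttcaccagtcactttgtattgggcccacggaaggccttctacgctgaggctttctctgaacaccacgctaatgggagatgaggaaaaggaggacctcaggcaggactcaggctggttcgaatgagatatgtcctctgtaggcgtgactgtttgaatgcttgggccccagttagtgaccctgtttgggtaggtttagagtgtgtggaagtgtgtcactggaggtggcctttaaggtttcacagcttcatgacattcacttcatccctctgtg

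Within these windows, the Sema3d region held 1 CEBP match, and the Bmp2 region held 1 RUNX match and 1 E-box. The windows of the Pdcl3 and Fam3b regions, both with CEBPA sites, each held 1 composite CEBP:AP1 match, spelled TGATGCAA and TGAGGCAA, and the Pdcl3 window also held 1 E-box. The Bcl11a window held 1 E-box, and no match was found in the Sel1l, Meis1 and Kit windows. A match is a description of the letters and was not tested as a binding site.

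The p30-only regions were narrow and carried weak peaks. Their median width was 427 bp, close to the 423 bp of p42-only regions and below the 1464 bp of shared regions. Enrichment over local background at the summit had a median of 2.89-fold in untreated p30 cells and 2.77-fold with LPS, against 4.99-fold and 5.08-fold in shared regions. When peaks were ranked by q within a list, from 0 for the strongest to 100 for the weakest, the best peak of a p30-only region had a median rank percentile of 65.9 untreated and 66.4 with LPS. The strongest 10% of the untreated list held 1 p30-only region and the strongest 10% of the LPS list held 2, while 26.1% and 27.1% of the regions fell in the stronger 50% of the peaks. The 2 p30 states ranked them in loosely related orders, with a Spearman rho of 0.318 across the 12225 regions against 0.913 across the 56651 shared regions, given as a description across regions that share libraries. Their rank was better with LPS at 49.5% of regions. At the limit of the rule, the 100 weakest p30-only regions had a p30 peak at q between 0.0386 and 0.0483, and the 100 regions kept out by the weakest single p42 peak had that peak at q between 0.0366 and 0.0495.

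**Figure D1:**
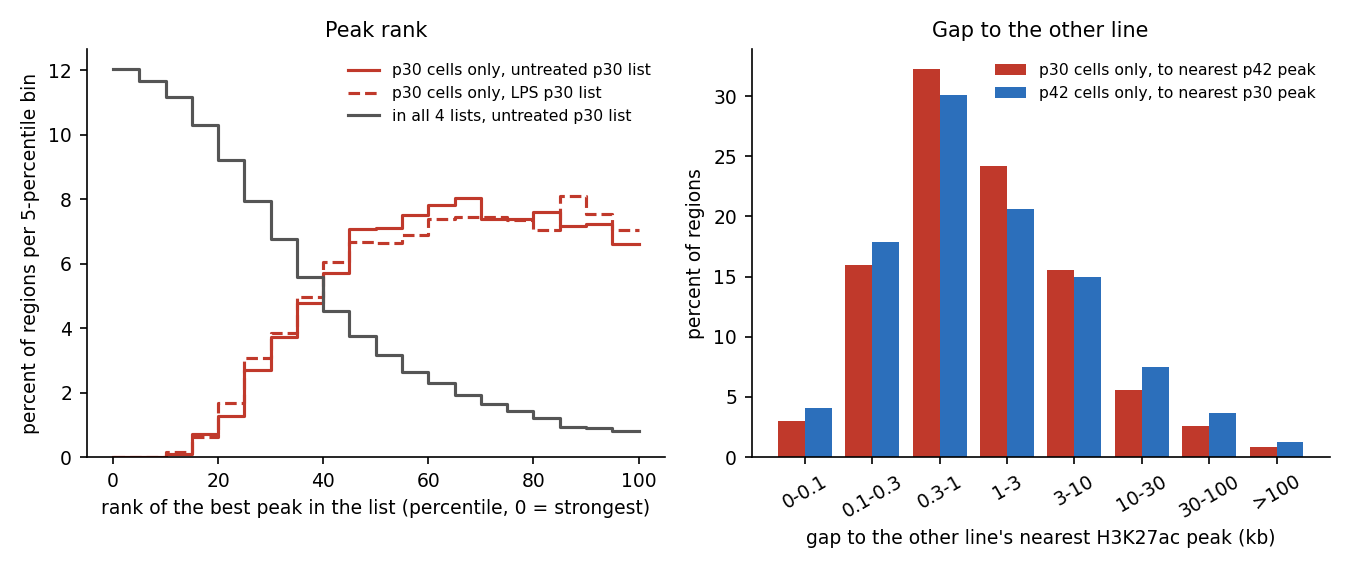
Left, percent of regions per bin of 5 rank percentiles (x axis, 0 is the strongest peak of the list) for p30-only regions in the untreated and LPS p30 lists and for shared regions in the untreated p30 list. Right, percent of p30-only and p42-only regions by the gap in kb to the nearest H3K27ac peak of the other line. The p30-only regions gather in the weaker part of both lists, with medians of 65.9 and 66.4, and 51.3% lie within 1 kb of a p42 peak.

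Many p30-only regions lay close to chromatin acetylated in p42 cells. A p42 H3K27ac peak lay within 1000 bp of 6267 regions (51.3%, 95% Wilson interval 50.4 to 52.1), and the median gap was 953 bp. For p42-only regions the corresponding share was 52.0%. A set of 1095 p30-only regions (8.96%) lay over 10000 bp from any p42 peak, and these isolated regions had a somewhat better median rank percentile of 53.6 untreated and 52.3 with LPS.

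Nearly all p30-only regions lay outside promoters, taken as 1000 bp upstream to 100 bp downstream of the start of a protein-coding transcript. By their strongest summit, 276 were in promoters (2.26%, interval 2.01 to 2.54) against 4.98% of all regions and 10.9% of shared regions, and p42-only regions had 2.65%. Introns held 64.6% (all regions 64.6%), exons 9.51% (11.2%) and intergenic sequence 23.6% (19.2%). Among the 1095 isolated regions the intergenic share was 45.8%, against 50.6% in the 520 p42-only regions that lay over 10000 bp from any p30 peak.

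The H3K4me1 lists were not used by the rule, and here the p30-only regions carried the enhancer mark more often in p30 than in p42 cells. A p30 H3K4me1 peak overlapped 5853 of the 12225 (47.9%, interval 47.0 to 48.8) and a p42 peak overlapped 3654 (29.9%, 29.1 to 30.7), while all regions had 42.8% and 36.4%. The p42-only regions showed the opposite order, with 30.2% in p30 and 40.2% in p42. Shared regions had 68.7% and 64.1%. The p30 H3K4me1 list was the longer, with 168035 against 134658 peaks, and cut to the same number of peaks it overlapped 42.6% of p30-only regions.

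Taken region by region, 2594 p30-only regions (21.2%) had H3K4me1 in p30 and not in p42, and 395 (3.23%) had it in p42 and not in p30. It was in both lines at 3259 (26.7%) and in neither at 5977 (48.9%). In the same order, all regions had 11.8%, 5.45%, 31.0% and 51.7%. In p42-only regions 15.9% had the mark in p42 alone and 5.95% in p30 alone. Regions were also compared within quintiles of rank in the untreated p30 H3K27ac list, where p30-only and shared regions had similar shares with H3K4me1 in p30 and p30-only regions had lower shares in p42. In the middle quintile, 51.5% of 3354 p30-only regions had the mark in p30 and 31.9% in p42, against 51.2% and 49.0% of 7997 shared regions. In the weakest quintile the p30 shares were 40.7% in both groups, and the p42 shares were 24.8% and 41.2%. The intervals cover counting error alone.

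CEBPA sites were rare in p30-only regions with either antibody and in either line. In p30 cells an anti-CEBPA site overlapped 86 regions (0.703%, interval 0.570 to 0.868; all regions 5.41%) and an anti-ER site overlapped 232 (1.90%, 1.67 to 2.16; all regions 8.86%). In p42 cells the counts were 102 for anti-CEBPA (0.834%; all regions 6.74%) and 55 for anti-ER (0.450%; all regions 6.54%). With both lines and antibodies together, 291 p30-only regions (2.38%) had any site, against 27.1% of p42-only, 25.6% of shared and 10.8% of all regions. The p42-only regions had anti-CEBPA sites at 10.7% in p30 and 22.1% in p42, and anti-ER sites at 17.4% and 20.5%. The site lists differed in length between the lines. Anti-CEBPA had 31851 sites in p30 and 47517 in p42, and anti-ER had 34006 in p30 and 23248 in p42. Shares of p30-only regions at equal list lengths are given in the closing section, and no difference between lines was tested.

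**Figure D2:**
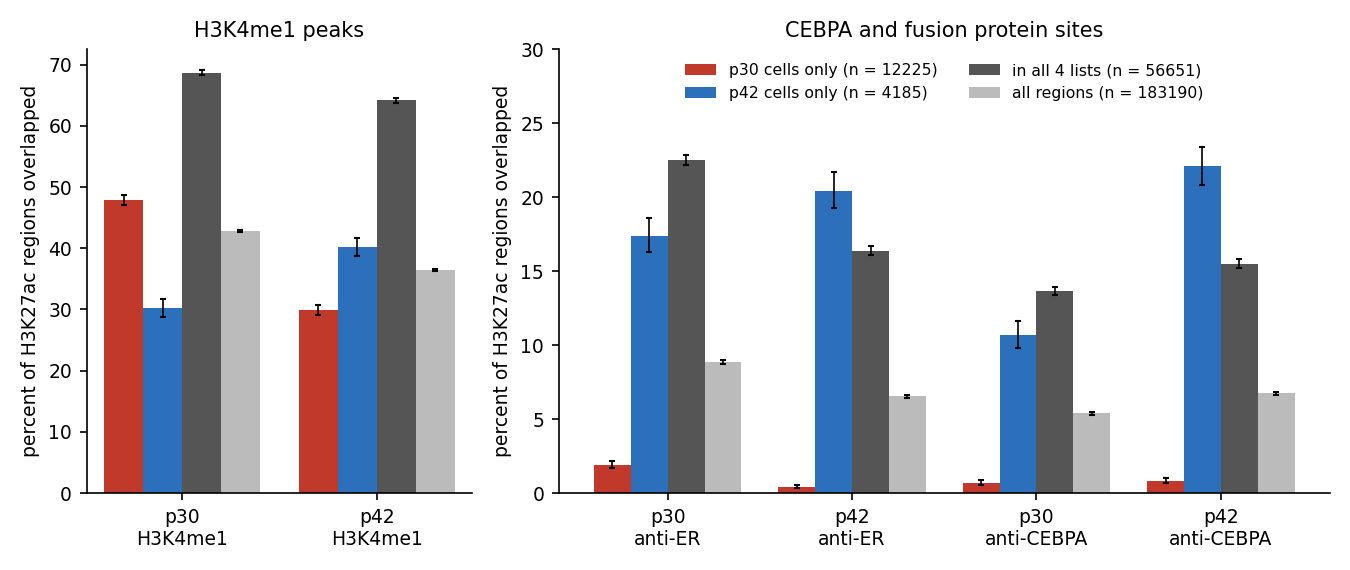
Percent of H3K27ac regions (y axis) overlapped by an H3K4me1 peak (left) or by an anti-ER or anti-CEBPA site (right) in untreated cells of each line, with 95% Wilson intervals for counting error. Red bars, the p30-only regions, are higher for H3K4me1 in p30 (47.9%) than in p42 (29.9%) and stay at or under 1.90% for every site list.

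Width and strength were each taken into account on their own, not together, and sites were fewer in p30-only than in shared regions each time. With a site's summit counted when it lay within 500 bp of the strongest H3K27ac summit, the p30 shares were 1.09% for anti-CEBPA and 2.67% for anti-ER. They were 9.82% and 17.3% in shared regions, 13.3% and 22.3% in p42-only regions and 4.76% and 8.10% in all regions. By rank quintile, anti-CEBPA sites in p30 overlapped between 0.533% and 0.985% of p30-only regions and between 4.98% and 21.9% of shared regions. Anti-ER sites in p30 were more frequent among the better-ranked p30-only regions, at 9.80% of the 102 in the strongest quintile and 1.00% of the 3497 in the weakest, while shared regions had 35.9% and 8.09%. Within the strongest quintile the p30-only regions lay mostly toward its weaker end, so ranks there were not equal. Shifted by 5000 bp to either side, the same intervals overlapped an anti-CEBPA site in p30 at 1.51% and an anti-ER site at 2.60%, both above the regions themselves. The median distance from the strongest H3K27ac summit to the nearest anti-ER site in p30 was 12218 bp for p30-only regions. It was 7671 bp for shared, 5373 bp for p42-only and 10760.5 bp for all regions.

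Among isolated regions the p30-only and p42-only patterns differed further in their sites. Of the 1095 p30-only regions over 10000 bp from a p42 peak, 5.66% (interval 4.44 to 7.19) had an anti-ER site in p30, 1.37% an anti-CEBPA site in p30 and 0.639% an anti-ER site in p42. The 520 p42-only regions equally far from a p30 peak had an anti-CEBPA site in p42 at 49.4% (45.1 to 53.7) and an anti-ER site in p42 at 48.5%.

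Regions with sites of both antibodies in p30 and of neither in p42 numbered 12. At 0.0982% this pattern was rarer than in all (0.354%), shared (0.937%) and p42-only regions (0.311%). Of the 12 regions, 4 lay outside promoters and had H3K4me1 in p30 and not in p42. The region nearest to Pdcl3 (chr1:39064148-39064911, intergenic) had an H3K27ac enrichment of 3.36-fold untreated and 4.42-fold with LPS, an anti-CEBPA enrichment of 8.43-fold and an anti-ER enrichment of 7.32-fold. The region in an intron of Gas7 (chr11:67493507-67494192), a gene for a cytoskeletal protein, had 2.38-fold and 3.66-fold H3K27ac. The region in an intron of Fam3b (chr16:97295735-97296187), a gene for a secreted cytokine-like protein, had 4.18-fold and 2.02-fold, and the one nearest to Cspg4b (chr13:113404128-113404633) had 3.54-fold and 3.07-fold. None of the 4 ranked in the strongest 25% of the peaks in both p30 lists. A further 28 p30-only regions had sites of both antibodies in both lines (0.229%, against 3.66% of all regions).

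Short sequences in 1000 bp around the strongest summit were compared for the 11949 p30-only regions outside promoters. The CEBP sequence was in 31.0% (interval 30.2 to 31.8) against 45.1% (43.6 to 46.6) of p42-only regions, 34.6% of shared regions and 33.6% of all regions. The composite CEBP:AP1 sequence was in 11.2% against 17.4%, 12.7% and 12.2%, and its CEBP:ATF4 form TGATGCAA in 2.59% against 4.42%, 2.80% and 2.61%. AP-1 was in 26.1% against 31.3%, 28.9% and 27.6%, and its reversed letters, searched as a control, were in 25.3%, 26.5%, 24.4% and 25.4%. At a GC content of 42 to 46%, where the most p30-only regions lay, the CEBP sequence was in 33.6% of p30-only, 43.4% of p42-only and 39.4% of shared regions, and the same order was found in each bin from 34 to 58% GC and not from 58 to 62%, where 21 p42-only regions were left.

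Sequences of progenitor and inflammatory factors were set beside the same groups. PU.1, an ETS factor of myeloid cells, had its sequence in 9.57% of p30-only regions, 7.73% of p42-only, 13.7% of shared and 9.43% of all regions. RUNX was in 25.5% of p30-only regions (all regions 24.9%), GATA in 13.1% (12.6%), the interferon-response sequence ISRE in 13.9% (13.6%) and the NF-kB sequence in 9.48% (9.54%). Of the rarer sequences, CRE (TGACGTCA) was in 0.720% of p30-only regions (all regions 0.861%), ETS (CCGGAAGT) in 0.829% (1.26%, shared regions 2.38%), HOX-PBX (TGATTTAT) in 4.11% (3.95%), STAT (TTCCNGGAA) in 2.87% (2.88%) and SP/KLF (GGGGCGGGG) in 2.49% (3.65%, shared regions 6.49%). The E-box was in 44.6% of p30-only regions against 36.6% of p42-only regions, 44.0% of shared regions and 42.5% of all regions. In the isolated p30-only regions, the PU.1 share was 17.6% (15.5 to 20.0) and the CEBP share 35.4% (32.5 to 38.3). Isolated p42-only regions had PU.1 at 15.7% (12.8 to 19.1) and CEBP at 58.6% (54.3 to 62.9). These intervals cover counting error alone, and no difference between the 2 sets was tested.

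**Figure D3:**
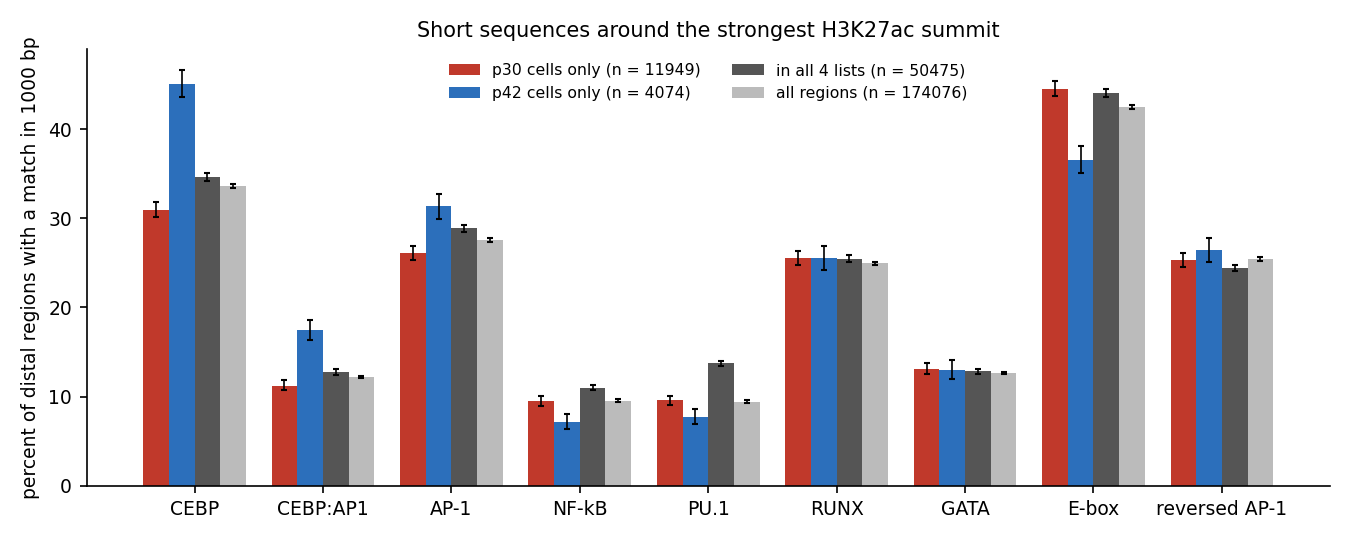
Percent of regions outside promoters (y axis) with at least 1 match to each short sequence in 1000 bp around the strongest H3K27ac summit, both strands, with 95% Wilson intervals for counting error. The CEBP bar of p30-only regions (31.0%) is below that of p42-only regions (45.1%), while RUNX and GATA bars are alike in all groups.

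The p30-only regions with the best ranks outside promoters had no CEBPA or anti-ER site in any of 8 cases, near the 2.38% of all p30-only regions. In the strongest quintile of the untreated p30 list, an anti-ER site in p30 overlapped 9.80% of 102 p30-only regions. The best, in intergenic sequence far from any start and nearest to Sel1l, a gene of endoplasmic reticulum quality control, reached 8.75-fold untreated and 8.52-fold with LPS (chr12:92857444-92857998) and had H3K4me1 in both lines. A region upstream of Bmp2, at -56155 bp from its start, a secreted growth factor, reached 9.32-fold and 8.39-fold (chr2:133336500-133338138) with H3K4me1 in p30 and not in p42. The same H3K4me1 pattern was found in an intron of Flt1, a receptor for VEGF, at 7.35-fold and 9.45-fold (chr5:147594075-147595451), 66628 bp from the nearest p42 peak. Regions near Ccr7, a chemokine receptor, at 8.01-fold and 9.33-fold, near Cyria, a RAC1 interactor, at 9.06-fold and 7.68-fold, and in an intron of Snap47 at 7.22-fold and 8.50-fold had H3K4me1 in both lines. The nearest p42 H3K27ac peak lay 2234 bp from the Ccr7 region, 6684 bp from Cyria's and 246 bp from Snap47's. For the Sel1l and Bmp2 regions this gap was 6540 bp and 1430 bp. The remaining 2 were the 183 bp region nearest to Sema3d and a region nearest to Potefam3a. The Sema3d region, at 8.65-fold and 10.4-fold, had no H3K4me1 and lay 545366 bp from a p42 peak. The Potefam3a region, at 3.45-fold and 3.47-fold, had H3K4me1 in p30 and not in p42 and lay 1510 bp from a p42 peak. Potefam3a belongs to a family of similar copies, where short reads are hard to place.

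Among the 6 best-ranked promoters were those of Gimap8, a GTPase gene of immune cells, at 8.40-fold untreated and 15.2-fold with LPS (chr6:48624132-48625092), and of Cd276, an immune checkpoint ligand, at 5.04-fold and 5.91-fold (chr9:58444550-58445077). Both had H3K4me1 in p30 and not in p42. The promoters of Bex2 (4.86-fold and 5.20-fold) and Oxr1, an antioxidant gene (4.20-fold and 6.02-fold), had no H3K4me1. The gap to the nearest p42 H3K27ac peak was 1057 bp for Gimap8, 269 bp for Cd276, 176504 bp for Bex2 and 182 bp for Oxr1. Gm3512, which ranked after Gimap8 (7.35-fold and 9.45-fold), and Gm2956 (4.46-fold and 6.73-fold) had intervals of 182 bp and 193 bp and also lie in families of similar copies. They lay 70179 bp and 399699 bp from a p42 peak. All 6 promoters had a higher enrichment with LPS, a comparison of separately pooled lists that was not tested. Over all p30-only regions the rank was better with LPS at 49.5%. None of the 6 promoters overlapped a CEBPA or anti-ER site, where 2.38% of all p30-only regions did.

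By nearest protein-coding start, the p30-only regions fell to 5444 of 21562 genes (25.2%), and p42-only regions to 2772 (12.9%). The 10 genes with the most were Cdkal1 with 34 of its 160 H3K27ac regions, Trappc9 with 30 of 183, Maml3, a Notch co-activator, with 28 of 197, Bcl11a with 27 of 104, Slco3a1 with 25 of 141, Snx29 with 23 of 162, Foxn3 with 22 of 209, Meis1 with 21 of 90, Osbpl1a with 20 of 69 and 1700025G04Rik with 20 of 76. Bcl11a and 1700025G04Rik each had 1 p42-only region, and the other 8 genes had 0. With equal numbers of peaks per list, Cdkal1 had 34 and Trappc9 29, while Maml3 had 18 with 2 p42-only, Slco3a1 12, Snx29 12, Osbpl1a 11, 1700025G04Rik 9 and Foxn3 7 with 2 p42-only. Bcl11a then had 19 with 2 p42-only, and Meis1 had 16 with 0. Most of these loci are long, from 96183 bp for Bcl11a to 663931 bp for Cdkal1, and hold many regions of every kind.

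Bcl11a, a transcriptional repressor of fetal globin genes that also acts in stem and lymphoid progenitor cells, and Meis1, a homeobox factor of stem cells and of leukemia, were the progenitor factors with the most p30-only regions. At Bcl11a the enrichment ranged from 2.22-fold to 5.61-fold untreated (median 2.89-fold) and from 2.36-fold to 6.73-fold with LPS (median 3.43-fold), and 19 of 27 regions were higher with LPS. H3K4me1 was present in p30 at 20 of the 27 and in p42 at 4, with 16 marked in p30 and not in p42. Introns held 16 of them, exons 2, and 9 lay in intergenic sequence, of which the best-ranked (chr11:24244881-24246711) stood at 5.61-fold and 6.50-fold, 214662 bp downstream of the start and 49574 bp from a p42 peak. At Meis1 the range was 2.62-fold to 4.33-fold untreated (median 3.02-fold) and 2.13-fold to 4.36-fold with LPS (median 3.03-fold), and 6 of 21 were higher with LPS. The counts of regions higher with LPS compare separately pooled lists, and no effect of LPS at either gene was tested. H3K4me1 was in p30 at 11 of the 21 and in p42 at 6. No p30-only region of either gene overlapped a site of either antibody in either line, which is near the 2.38% of all p30-only regions. Of the shared regions, 7 of 18 nearest to Bcl11a and 4 of 23 nearest to Meis1 did, beside 25.6% of all shared regions.

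**Figure D4:**
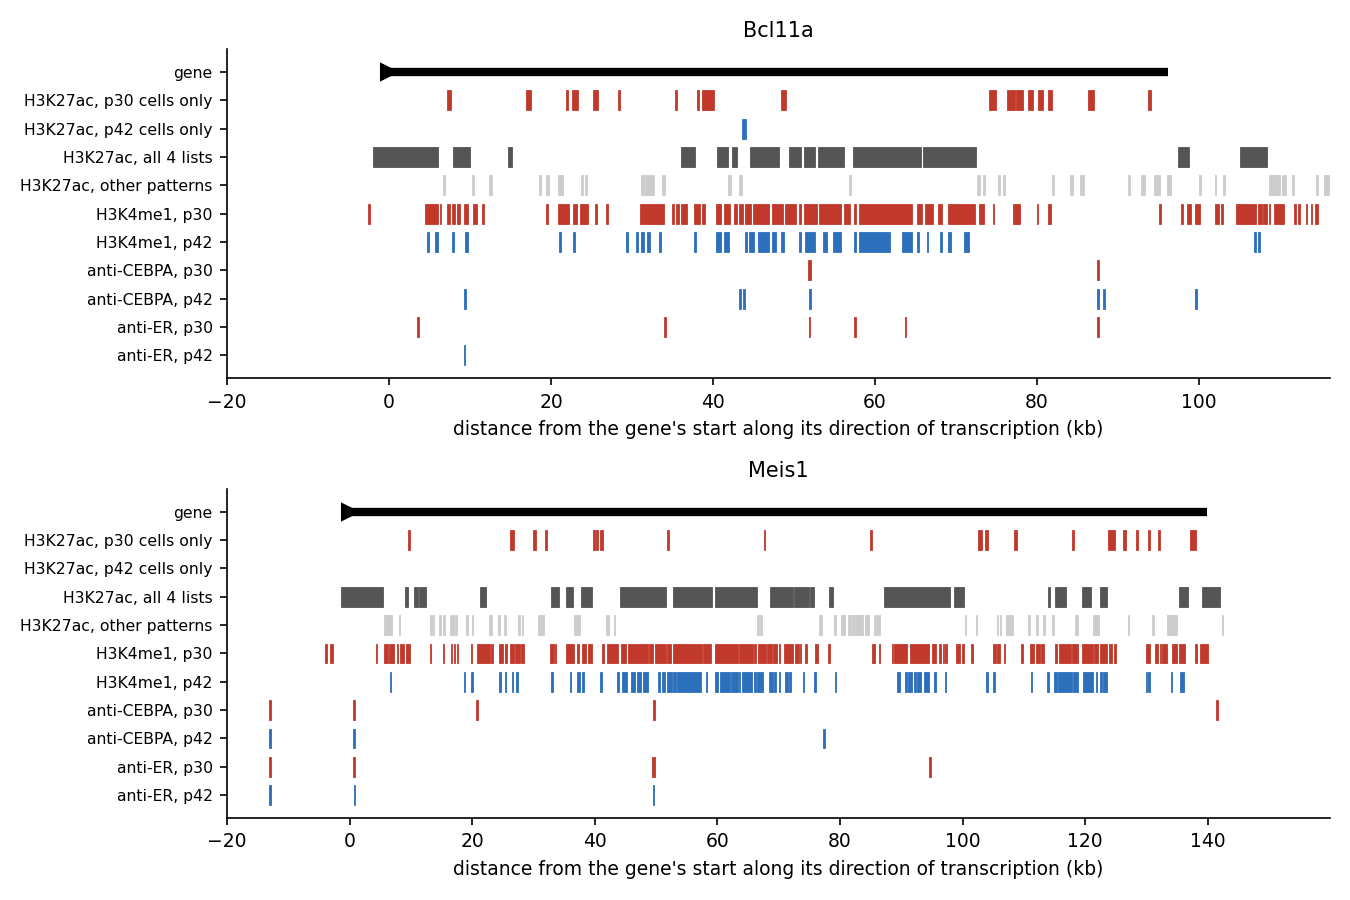
Bcl11a and Meis1 with 20 kb on each side, drawn by distance in kb from the start of the gene along its direction of transcription. Rows show the gene, H3K27ac regions by pattern, and the H3K4me1 peaks, anti-CEBPA sites and anti-ER sites of each line. In this window 18 p30-only and 1 p42-only region lie at Bcl11a and 20 p30-only and 0 p42-only regions at Meis1, between and beside the shared regions.

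Some p30-only regions stood in rows. Joining neighbours at most 5000 bp apart with no p42-marked region between them left 9513 on their own, 1041 rows of 2, 126 of 3 and 45 of 4. The longest had 7 and, with the others named here, were chosen for mention after their values were seen. One lay in the 3' part of Bcl11a (chr11:24102062-24115005), with H3K4me1 in p30 at 5 of 7 regions and in p42 at 0. The other was in Cdh17, a cadherin gene (chr4:11792390-11811242), with H3K4me1 at 2 of 7 in each line. Rows of 6 lay in Ccnd3, a D-type cyclin (H3K4me1 in p30 at 6, in p42 at 4), in Mad1l1 (3 and 0) and across Ddc beside Fignl1 (6 and 3), and Meis1 had a row of 5 (3 and 1).

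The p30-only share of regions ranged widely between gene lists, no difference between lists was tested, and a few loci carried much of the share in some. Across 12 gene lists, the share of the regions nearest to a list's genes that were p30-only was set beside 6.67% for all genes, and the p42-only share beside 2.28%. For 16 genes described as targets of p30 or in CEBPA-mutant leukemia it was 12.9% (88 of 681 regions, at 12 of 16 genes) with 1.62% p42-only. For 28 signalling and adaptor genes of progenitors it was 9.76% (78 of 799, at 21 genes) with 2.25% p42-only, for 24 progenitor transcription factors 8.49% (92 of 1084, at 16 genes) with 1.75%, and for 24 receptors and surface proteins of progenitors 8.32% (52 of 625, at 12 genes) with 1.92%. For 71 inflammatory genes it was 4.25% (43 of 1011, at 22 genes) with 3.07% p42-only, and for 28 granulocyte and monocyte genes 5.86% (17 of 290, at 8 genes) with 6.55%. Lists overlap, and Meis1, Kit, Sox4, Cd34, Fosl2, Erg, Gata2, Hoxa9, Mycn and Flt3 of the leukemia list are each in another list. The leukemia share thus largely counts regions of other lists again. Without the 3 genes with the most p30-only regions the progenitor factors had 3.93% (interval 2.75 to 5.59), the receptors 6.20% (4.13 to 9.20) and the leukemia list 10.8% (7.87 to 14.7). The signalling list then had 7.42% (5.64 to 9.70) and the inflammatory list 3.43% (upper bound 4.89). With the 4 H3K27ac lists cut to the same number of peaks the p30-only shares were 6.67% for the progenitor factors, 5.26% for the receptors, 9.86% for the leukemia list, 7.04% for the signalling list and 2.25% for the inflammatory list, beside 4.77% for all genes. The inflammatory genes then had more p42-only (4.50%) than p30-only regions, the opposite of their order at full list length. The granulocyte and monocyte genes had 2.50% p30-only and 9.58% p42-only. Over all genes this setting gave 7013 p30-only and 5615 p42-only regions, against 12225 and 4185 at full length. The 2.28% at full length is thus no reference for these p42-only shares.

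**Figure D5:**
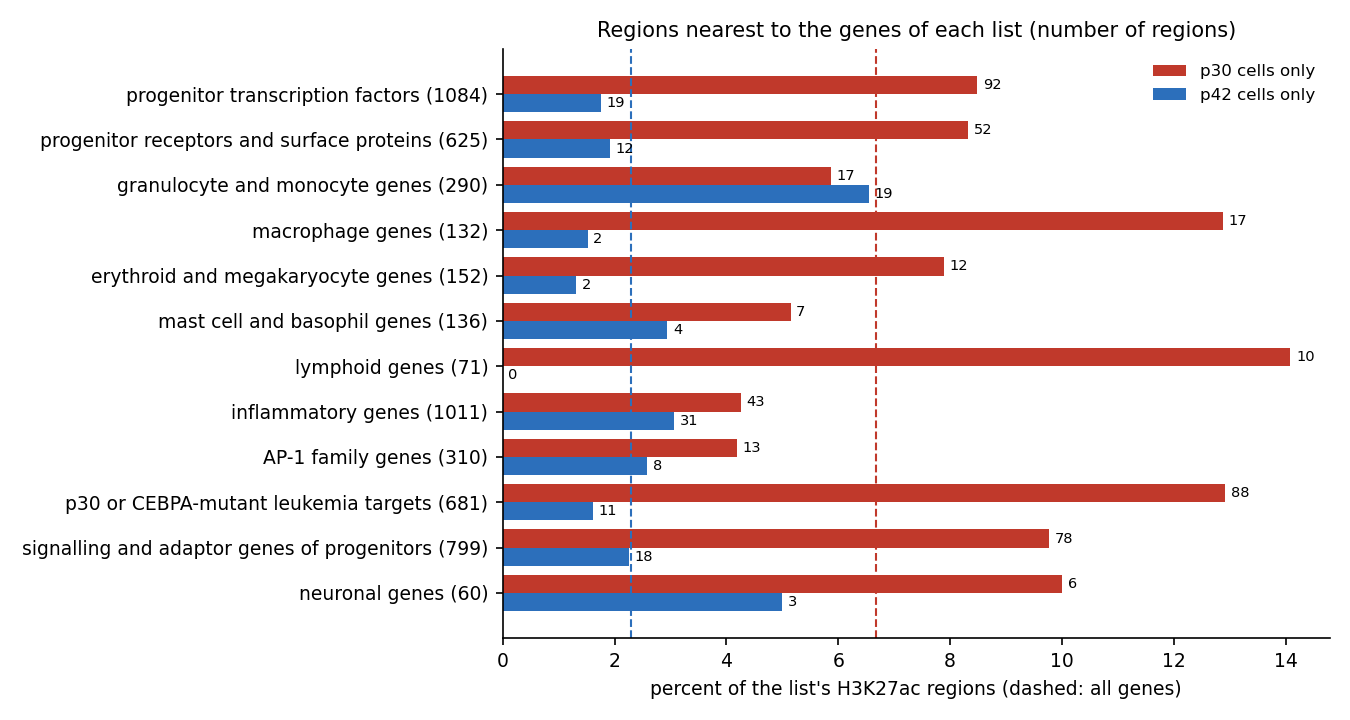
Percent of the H3K27ac regions nearest to the genes of each list (x axis) that were p30-only or p42-only, with the number of such regions at the bar ends, the number of all regions in brackets and dashed lines at the values for all genes (6.67% and 2.28%). For p30-only regions the lymphoid list stands highest at 14.1% with 10 regions, the leukemia target list at 12.9% and the inflammatory list at 4.25%.

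Among the progenitor factors, Sox4 had 15 p30-only regions, all intergenic and from 22280 bp to 397911 bp from its start, with 0 p42-only regions, and Runx1 had 6 with 4 p42-only regions (4 and 7 with equal numbers of peaks). Myc went the other way with 3 p30-only and 7 p42-only regions. Genes named here for having more p42-only regions were chosen after their values were seen. Kit, the receptor for stem cell factor, had 17 of 115 regions, all intergenic and at least 71818 bp from its start, and 0 p42-only regions. Enrichment at the Kit regions ranged from 1.94-fold to 3.81-fold untreated and from 2.38-fold to 5.27-fold with LPS. It was higher with LPS at 13 of 17, which compares separately pooled lists and was not tested. With equal numbers of peaks per list Kit had 8. H3K4me1 was present at 14 of the 17 in p30 and at 10 in p42. The regions of Cd34, a surface marker of progenitors, had H3K4me1 in both lines at 6 of 6. Cd47 had 7 and the integrin gene Itga4 had 5, and with equal numbers of peaks each had 2. Of the 92 p30-only regions nearest to progenitor factors, 1 overlapped any CEBPA or anti-ER site, which is close to the 2.38% of all p30-only regions, and 100 of 399 shared regions of the same genes did.

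In the signalling list, Jak1, a cytokine receptor kinase, had 13 p30-only regions, the cyclin genes Ccnd3 and Ccnd1 had 9 and 8, and Spred1, an inhibitor of RAS signalling, had 8. Ccnd3 had 4 with equal numbers of peaks. The MAP kinase phosphatase genes Dusp6, with 1 p30-only and 9 p42-only regions, and Dusp4, with 0 and 3, had the opposite balance. None of the list's 78 regions overlapped a site in any of the 4 site lists, where 2.38% of all p30-only regions and 104 of the list's 298 shared regions did. In the leukemia list, Nt5e, a surface enzyme gene, had 0 p30-only and 6 p42-only regions and Gata2 had neither. Msi2, an RNA-binding protein of stem cells in the same list, had 11 in its introns and 0 p42-only regions, and with equal numbers of peaks in each list 1 remained in count. The AP-1 list had 13 of 310 regions (4.19%) and 2.58% p42-only, below and near the values for all genes. In it, Fosl2 had 6 and Jun 2, with 1 each at Maff, Batf3, Atf3, Atf7 and Jdp2. Fosl1 had 0 p30-only and 3 p42-only regions, and Atf7 and Jdp2 each had 2 p42-only regions.

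In the inflammatory list, the NF-kB subunit gene Nfkb1 and the cytokine-signalling inhibitor Socs1 had 4 p30-only regions each, and Tnfaip3, an inhibitor of NF-kB, had 3 with 2 p42-only. With equal numbers of peaks Nfkb1 had 0, Socs1 3 and Tnfaip3 2. Tlr4, the receptor for LPS, had 0 p30-only and 5 p42-only regions. Of the list's 43 p30-only regions, 1 overlapped a CEBPA or anti-ER site, again close to the 2.38% of all p30-only regions, and 131 of 322 shared regions did. Among myeloid genes, Ngp had 4, and Cebpa, Cebpb and Irf8 had 3 each, which with equal numbers of peaks became 0, 1, 1 and 2. Gfi1, a repressor needed for granulocytes, had 1 p30-only and 11 p42-only regions. The macrophage list reached 12.9% through Maf, with 13 of its 17 p30-only regions, beside Mrc1 with 3 and Cd163 with 1. Of the erythroid and megakaryocyte genes (12 of 152 regions, 7.89%), Gp9, Treml1, Tfrc and Itga2b had 2 each. Of the mast cell genes (7 of 136, 5.15%), Il13, Il1rl1 and Cpa3 had 2 each and Mitf 1. The lymphoid list had 10 of 71 regions (Gata3 4, Dntt 3, Lck 2, Tcf7 1), or 14.1%, with 0 p42-only regions. That was the highest p30-only share of the 12 lists. The neuronal list, a set not expected in these cells, had 6 of 60 regions (Camk2a 3, Slc6a4 2, Grin1 1), or 10.0%. Both shares were above those of the progenitor factors (8.49%), the receptors (8.32%) and the signalling list (9.76%). Lists with under 20 p30-only regions rest on few loci, and their shares move by several percent with 1 gene.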

How the data were processed

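ChIP-seq of 40 samples was deposited, of which 10 mouse peak lists were used. The authors trimmed reads with Trim Galore (version 0.6.6), aligned them to mm39 with Bowtie2, left out duplicates and called narrow peaks against input with MACS2 at a q of 0.05. The deposited lists give for each peak the fold enrichment (a ratio over local background) and the −log10 q-value. They hold no read counts, and the authors report only a range of reads per sample, so the depth behind each list is unknown. The caller's q compares ChIP with input, not the lines. A list of human cells was not used here.

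Peaks on chromosomes 1 to 19, X and Y were merged by overlaps of at least 1 bp with numpy 2.4.6 and pandas 2.3.3, and ranked by q. A site or mark was counted by an overlap of at least 1 bp. Regions were placed by their strongest p30 summit (for other regions, the strongest summit of any list) against protein-coding genes of GENCODE M39 on GRCm39, which has the lengths of mm39. No test was made between lines, since replicates were pooled or single. Shares carry 95% Wilson intervals, which cover counting error only. Steps were tested on simulated intervals.

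Regions named were the 8 best outside promoters and the 6 best in promoters by the worse of both p30 rank percentiles, the 10 genes with the most p30-only regions, up to 4 genes per list (some members of the lists are not reported here), and up to 6 regions with H3K4me1 and both antibodies in p30 and not in p42. The members and lists were chosen with earlier results of these data known. Gene lists and alternatives are described in the closing section.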

Additional observations from a re-analysis of the deposited data

How the results depend on the processing

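No paired analysis was possible because the lists are pooled over replicates or come from 1 sample, and for the same reason no replicate could be left out in turn. The depth behind each list is unknown, so a region without a peak may still carry the mark below the caller's threshold. The number of p30-only regions depended on the settings: 2323 with p30 peaks at q under 1e-05, 7013 with equal numbers of peaks per list and 5958 with no p42 peak within 1000 bp. The cause of these shifts was not tested.

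With q under 0.01 the H3K4me1 share in p30 was 49.1%. With q under 1e-05, H3K4me1 was at 66.3% in p30 and 41.4% in p42, anti-CEBPA in p42 at 1.03%, anti-ER at 4.39% in p30 and 0.732% in p42, and the PU.1 sequence at 14.0%. With equal peak numbers, H3K4me1 was at 55.7% in p30 and 36.3% in p42, anti-ER in p30 at 2.51% and PU.1 at 11.3%. With no p42 peak within 1000 bp, H3K4me1 in p42 was at 27.2%, anti-CEBPA in p30 at 0.923%, anti-ER in p30 at 2.72%, promoters at 1.91% and PU.1 at 11.98%. Promoters within 2500 bp of a start held 9.98%, and windows of 400 bp held CEBP at 12.5% and PU.1 at 4.87%. With equal list lengths in both lines, H3K4me1 in p30 was at 42.6%, anti-CEBPA in p42 at 0.474% and anti-ER in p30 at 1.10%.

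For H3K4me1 in p30 and p42, anti-CEBPA in p30 and p42 and anti-ER in p30 and p42, in that sequence, the shares were 27.7%, 19.6%, 0.335%, 0.434%, 1.12%, 0.270% when a summit had to lie in the region and 40.2%, 28.8%, 1.09%, 1.37%, 2.67%, 0.834% when it had to lie within 500 bp of the H3K27ac summit. From the strongest to the weakest rank quintile they were 77.5%, 37.3%, 0.980%, 0%, 9.80%, 0.980%, then 64.5%, 41.7%, 0.985%, 1.05%, 4.40%, 0.722%, then 51.5%, 31.9%, 0.835%, 1.04%, 2.42%, 0.596%, then 43.8%, 27.8%, 0.533%, 0.507%, 1.04%, 0.347%, and last 40.7%, 24.8%, 0.629%, 0.915%, 1.00%, 0.286%. H3K4me1 was more frequent in p30 than in p42 under each of these settings.

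For the gene lists of progenitor factors, leukemia targets, signalling, inflammatory and all protein-coding genes, in that sequence, the p30-only shares were 2.31%, 3.52%, 2.00%, 0.692%, 1.27% with q under 1e-05, 6.67%, 9.86%, 7.04%, 2.25%, 4.77% with equal peak numbers and 4.52%, 6.90%, 4.01%, 1.88%, 3.25% with no p42 peak within 1000 bp. Without the 3 leading genes the progenitor factors were at 3.93% and the signalling list at 7.42%. The 500 bp summit rule and the gene list alternatives were chosen after seeing the data.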
